A study of Mus musculus with 12 samples.

Results

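Oxidative phosphorylation genes were followed across 4 Foxo1 genotypes of a mouse lymphoma cell line. A gene was taken as a member when its symbol on the array began with Nduf, Sdh (a to d), Uqcr, Cox4, Cox5, Cox6, Cox7, Cox8 or Atp5, and 90 of 18194 named genes met that rule. Complex I had 42 members, of which 6 encode core subunits, 28 accessory subunits and 8 assembly factors. Complex II had 4 members, complex III 8, complex IV 19 and complex V 17. Each gene was read by its brightest probe set naming that gene alone, and 87 members passed the filter on dim genes, which asks that 3 or more of the 12 arrays read the gene above their own median. The members below it were Cox6b2, Cox7b2 and Ndufb4. Ndufb4 was read by 1 probe set alone, at a mean of 4.70, and such a dim reading does not show that the gene is silent. Some nuclear-encoded subunits, such as Ndufs6, Ndufa11 and Cox7b, and the subunits encoded by mitochondrial DNA were not analysed here.

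The line was BL#19, a murine Burkitt lymphoma (a germinal center B cell lymphoma), edited with CRISPR/Cas9. Its Foxo1 alleles were a wild-type allele (wt) and a mutant one (mt) coding for T24P, a replacement of a threonine that AKT phosphorylates. The groups, of 3 arrays each, were wt+/mt+ with both alleles, wt-/mt+ with the wild-type allele knocked out, wt+/mt- with the T24P allele knocked out, and wt-/mt- with both knocked out. All are derived from that 1 line, and nothing in the labels tells if the arrays of 1 genotype came from separate clones, cultures or RNA preparations. The p-values are thus set by the scatter among 3 arrays per genotype, which could be no more than technical, and 1 clone may stand for a genotype.

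Oxidative phosphorylation couples the transfer of electrons to the synthesis of ATP in the inner mitochondrial membrane. Complex I takes electrons from NADH and complex II from succinate, complex III passes them through cytochrome c to complex IV, which reduces oxygen, and complex V uses the resulting proton gradient to make ATP. Complexes I, III and IV can associate into supercomplexes. FOXO1 is a forkhead transcription factor that AKT phosphorylation keeps out of the nucleus, and FOXO factors are known to act on metabolic genes in several tissues.

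Foxo1 itself, the edited gene, lay between 11.16 and 12.10 on the log2 scale in the 9 arrays with at least 1 intact allele and at 10.23, 9.39 and 10.34 in wt-/mt-. It fell by 1.65 from wt+/mt+ to wt-/mt- (SE 0.23, adjusted p = 0.00122). Its level did not tell the genotypes with 1 allele from wt+/mt+, and where the probe set lies relative to the edits is not given in the sources used here. The 3' to 5' ratio of beta-actin probe sets, a measure of RNA integrity that rises when RNA is degraded, was 2.17 and 1.71 (log2) in replicates 1 and 2 of wt+/mt- and 1.06 to 1.29 in the other 10 arrays. All 6 B cell markers on the array passed the filter, with a summed level (log2) of 15.82 to 16.03 in the 3 genotypes with an intact allele and 15.31 to 15.76 in wt-/mt-. Summed T cell markers lay between 8.51 and 8.72, with Cd3d and Cd3g below the filter. Summed myeloid markers, of which Csf1r and Adgre1 passed, read 8.38 to 8.74, stromal markers, of which Col1a2 passed, 7.79 to 8.00, and erythroid markers, of which 0 passed, 5.49 to 5.97. Natural killer markers, of which Klrd1 and Prf1 passed, read 7.54 to 8.17 in both genotypes with the T24P allele, 8.54 to 9.41 in wt+/mt- and 7.63 to 9.42 in wt-/mt-. Summed muscle markers, of which Ckm and Acta1 passed, were 7.88 to 8.07 in both genotypes with the T24P allele and 8.36 to 8.67 in both without it. The wt-/mt- arrays were the most variable, with a median SD of 0.19 over the kept members against 0.06 in wt+/mt+, and of 0.26 against 0.10 over all 11458 kept genes.

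The members did not move as a block when Foxo1 was lost. After loss of both alleles (wt-/mt- minus wt+/mt+), 9 of 87 members passed the test, 4 higher and 5 lower, or 10.3% of members against 22.1% of all genes tested (12.2% higher and 9.94% lower). The median change over the members was 0.04, against 0.05 over all genes. Against wt+/mt-, 12 members passed, 10 higher and 2 lower, or 13.8% against 14.6% of all genes (6.35% higher and 8.22% lower), with a median change of 0.09 against -0.01. Against wt-/mt+, 11 members passed, 5 higher and 6 lower, or 12.6% against 20.8% of all genes (9.75% higher and 11.1% lower), with medians of 0.01 and 0.01. These 3 comparisons share the 3 wt-/mt- arrays, so their values are set side by side and are not independent. The members' share of calls was below the share of all genes in each, while the share called higher against wt+/mt-, 11.5% of members, was above that of all genes. Here and below, a change is called when its adjusted p from limma over all genes is under 0.05. Counts at an unadjusted p under 0.05 were made for members alone, so they do not show an excess over all genes.

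These counts depended on weights, on single arrays and on scaling, and the counts over all genes moved as well. With 1 weight per genotype (0.26 for wt-/mt- and 2.12 for wt+/mt+), the 9, 12 and 11 calls became 3, 3 and 2, or 3.45%, 3.45% and 2.30% of members against 7.81%, 3.64% and 8.27% of all genes. After loss of both alleles, 21 members (24.1%, against 27.4% of all genes) were called without replicate 1 of wt-/mt-, 14 higher and 7 lower. Without replicates 1, 2 and 3 of wt+/mt+ it was 4, 3 and 4, against 12.9%, 10.9% and 11.3% of all genes. It was 5 each without replicate 1 or 2 of wt-/mt+ or replicate 2 of wt+/mt-, against 18.1%, 18.7% and 18.3% of all genes. Against wt-/mt+, 17 members (19.5%, against 26.1% of all genes) were called without replicate 1 of wt-/mt-. Without replicates 1, 2 and 3 of wt-/mt+ it was 5, 3 and 6, against 12.6%, 9.76% and 12.4% of all genes. It was 7 each without replicate 2 of wt+/mt+ or of wt+/mt-, against 16.4% and 17.2% of all genes. The split of 4 higher and 5 lower became 7 and 3 with quantile normalization and 5 and 4 with each chromosome centred. Against wt-/mt+ the split of 5 and 6 became 7 and 4 with quantile normalization, 10 and 3 with array medians set equal, and 8 and 4 with each chromosome centred.

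With 1 spread assumed for all genotypes, most members were measured closely enough to bound their change. After loss of both alleles the 95% interval lay within -0.5 and 0.5 on the log2 scale for 56 members (64.4%), against 33.8% of all genes tested. The corresponding counts were 52 members against wt+/mt- and 52 against wt-/mt+. The members' median SD was 0.19 in wt-/mt- and 0.06 in wt+/mt+, so intervals from the pooled spread may be too narrow in these comparisons. The members rising or falling were single subunits of complexes I, III, IV and V and assembly factors of complex I. Cox7a2l, Ndufa4, Uqcr11, Uqcrh and Atp5g1 passed in each of the 3 comparisons, which share the wt-/mt- arrays. In all, 18 members (20.7%) were called in at least 1 of the 8 tests made (6 pairwise comparisons, the interaction and an F test over the 4 genotypes), against 30.5% of all genes, and 69 in none.

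**Figure D1:**
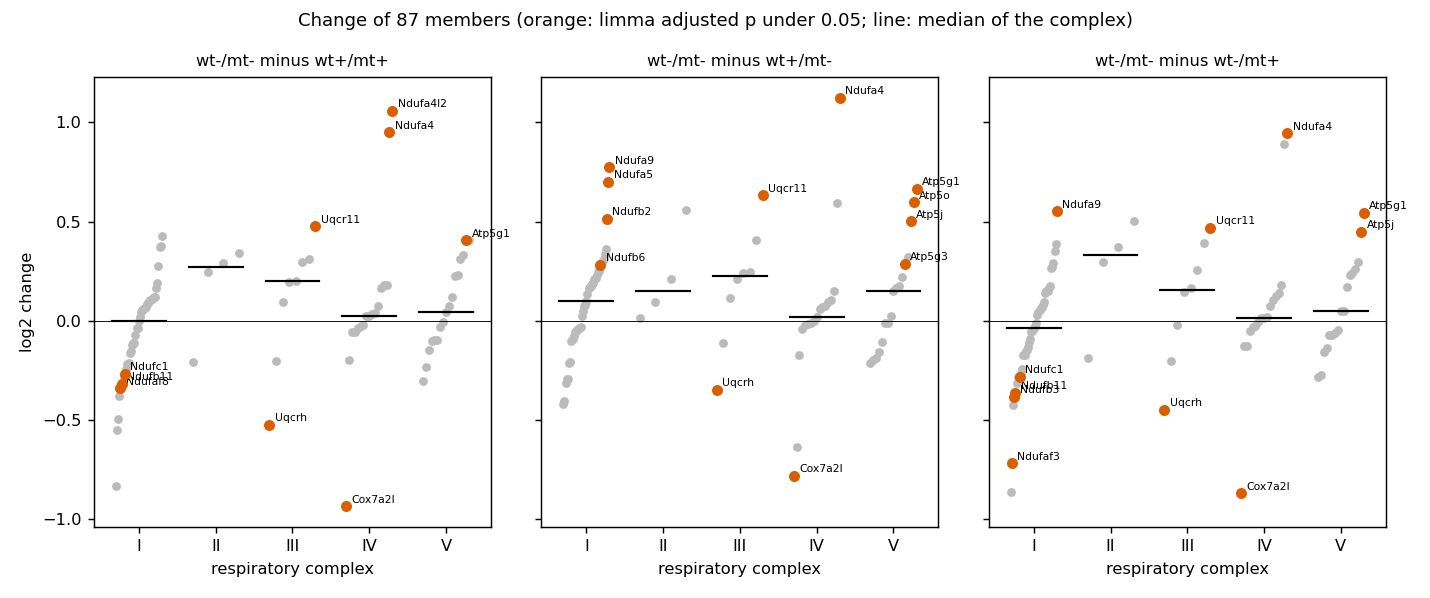
Log2 change (vertical axis) of the 87 kept members in the 3 comparisons against wt-/mt-, one panel each, by respiratory complex (horizontal axis). Orange points passed the limma test and are named, grey points did not, and black lines are medians. Called members lie on both sides of 0, with Ndufa4 highest or next to highest and Cox7a2l lowest among the called.

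Complex IV held the largest called changes, in opposite directions. Cox7a2l, also known as SCAF1, tethers complex III to complex IV in the supercomplex. Its level was 13.15, 13.35 and 13.24 in wt+/mt+, 13.08, 13.33 and 13.13 in wt-/mt+, 13.20, 13.14 and 12.93 in wt+/mt-, and 12.27, 12.43 and 12.23 in wt-/mt-. All 3 wt-/mt- arrays lay below all 9 others. It fell by 0.93 (SE 0.11, adjusted p = 0.000481) after loss of both alleles, by 0.78 (SE 0.11, adjusted p = 0.00195) against wt+/mt- and by 0.87 (SE 0.11, adjusted p = 0.000627) against wt-/mt+. Its 3 probe sets gave changes of -0.93, -0.87 and -0.89 after loss of both alleles. The call against wt+/mt- held in 19 of 20 alternative settings and ended without both wt+/mt- arrays of high actin ratio, where the change was -0.62 (adjusted p = 0.133) with 1 wt+/mt- array left.

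Ndufa4 was first described as a complex I subunit and is now placed in complex IV. Its level was 12.47, 12.24 and 12.39 in wt+/mt+, 12.40, 12.35 and 12.36 in wt-/mt+, 11.91, 12.25 and 12.41 in wt+/mt-, and 12.80, 13.52 and 13.63 in wt-/mt-. The wt-/mt- arrays were again apart from the other 9, here above them, with replicate 1 nearest. It rose by 0.95 (SE 0.20, adjusted p = 0.00815) after loss of both alleles, by 1.12 (SE 0.20, adjusted p = 0.00521) against wt+/mt- and by 0.95 (SE 0.20, adjusted p = 0.0082) against wt-/mt+. The call against wt+/mt- ended with the actin ratio as a covariate and without both wt+/mt- arrays of high ratio (highest adjusted p 0.215), where the rise was 0.87 and 0.91. Its paralog Ndufa4l2 is induced by hypoxia and can lower respiration. Its level was 6.04, 6.37 and 6.37 in wt+/mt+, 6.39, 6.28 and 6.61 in wt-/mt+, 6.66, 6.90 and 6.62 in wt+/mt-, and 6.69, 8.27 and 6.99 in wt-/mt-, close to the array medians of 6.08 to 6.25 in wt+/mt+. Replicate 2 of wt-/mt- stood highest, and replicate 1 lay within the range of wt+/mt-. The rise by 1.06 (SE 0.32, adjusted p = 0.036) after loss of both alleles was called, while the differences of 0.59 (SE 0.32, adjusted p = 0.241) against wt+/mt- and 0.89 (SE 0.32, adjusted p = 0.0689) against wt-/mt+ were not. The call held in 11 of 20 settings, and the rise was 0.58 (adjusted p = 0.0212) without replicate 2 of wt-/mt-.

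The promoters of Ndufa4 and Cox7a2l are shown because both members kept their calls in all 20 alternative settings after loss of both alleles, in opposite directions. Each window runs 5′ to 3′ from 250 bases before to 50 bases after the annotated start (RefSeq, mouse build GRCm38.p6). Neither held any of 5 motifs searched on both strands: the forkhead core GTAAACA, the NRF1 motif (GCGCA, any base, GCGC), the ETS motif CCGGAAG (bound by GABP among others), the YY1 motif AAGATGG and the E-box CACGTG. That says only that these letters are not in these windows.
Ndufa4 promoter, chr6:11907401-11907700, minus strand: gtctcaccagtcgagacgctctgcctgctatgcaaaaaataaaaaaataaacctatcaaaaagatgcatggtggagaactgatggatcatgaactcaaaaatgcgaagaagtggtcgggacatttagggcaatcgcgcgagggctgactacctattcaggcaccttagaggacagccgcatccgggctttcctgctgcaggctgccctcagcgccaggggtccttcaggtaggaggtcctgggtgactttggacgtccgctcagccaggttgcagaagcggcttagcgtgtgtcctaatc
Cox7a2l promoter, chr17:83514284-83514583, minus strand: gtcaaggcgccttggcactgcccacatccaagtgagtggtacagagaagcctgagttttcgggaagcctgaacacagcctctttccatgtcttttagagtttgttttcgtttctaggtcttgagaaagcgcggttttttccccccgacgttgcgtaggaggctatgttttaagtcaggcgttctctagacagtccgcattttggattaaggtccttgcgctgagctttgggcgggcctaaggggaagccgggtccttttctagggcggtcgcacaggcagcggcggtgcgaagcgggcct

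**Figure D2:**
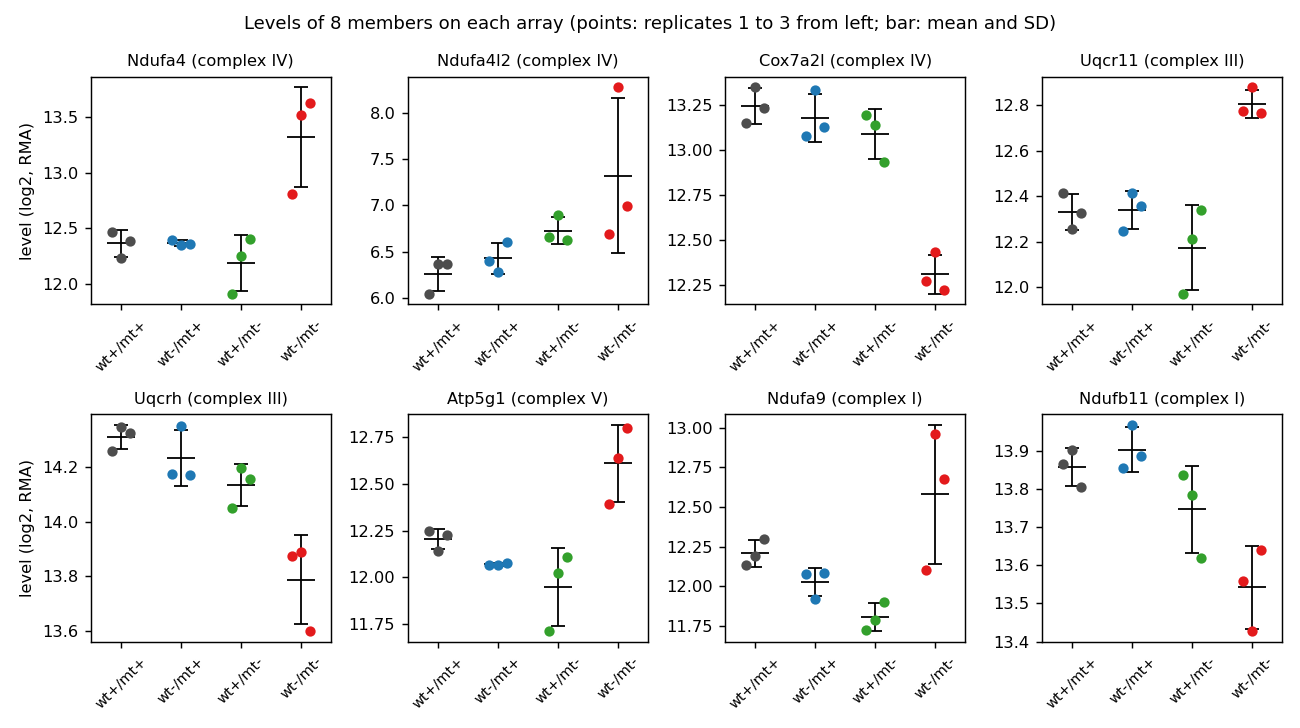
Level (log2, vertical axis) of 8 members in the 4 genotypes (horizontal axis), with 1 point per array and the mean and SD as bars; each panel has its own scale. The wt-/mt- points are apart from all others for Ndufa4, Cox7a2l, Uqcr11, Uqcrh and Atp5g1, and overlap with others for Ndufa4l2, Ndufa9 and, at 13.64 against 13.62, Ndufb11.

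The other 14 kept members of complex IV, the tissue-restricted isoforms included, passed in none of these comparisons (limma), and 0 had an unadjusted p under 0.05. A fit without replicate 2 of wt-/mt- called Cox6a2 lower against wt+/mt-, at -1.22 (adjusted p = 0.0419). Cox4i1, the ubiquitous isoform of subunit 4, read 14.00, 14.02 and 14.00 in wt+/mt+, 14.04, 14.20 and 14.07 in wt-/mt+, 13.93, 13.95 and 13.98 in wt+/mt-, and 13.86, 14.10 and 13.96 in wt-/mt-. Its paralog Cox4i2, known from lung and from hypoxia, read 7.18, 7.11 and 7.09 in wt+/mt+, 6.99, 7.52 and 7.17 in wt-/mt+, 6.98, 7.27 and 7.17 in wt+/mt-, and 7.16, 7.08 and 7.06 in wt-/mt-. For Cox4i1 the difference after loss of both alleles was -0.04 (95% interval -0.24 to 0.17) and for Cox4i2 -0.03 (95% interval -0.32 to 0.26).

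Cox6a1, the widely expressed form of subunit 6a, read 15.11, 15.08 and 15.07 in wt+/mt+, 15.15, 15.01 and 15.11 in wt-/mt+, 15.08, 15.06 and 15.04 in wt+/mt-, and 15.17, 15.07 and 15.25 in wt-/mt-. The heart and muscle form Cox6a2 read 9.16, 9.36 and 9.55 in wt+/mt+, 9.31, 9.29 and 8.98 in wt-/mt+, 9.93, 9.82 and 9.63 in wt+/mt-, and 9.43, 10.33 and 7.73 in wt-/mt-. Within wt-/mt-, Cox6a2 was highest on replicate 2 and lowest on replicate 3, with an SD of 1.32, and its difference after loss of both alleles was -0.20 (95% interval -1.25 to 0.85). Cox6b1, which faces cytochrome c, read 14.08, 14.06 and 14.04 in wt+/mt+, 13.97, 14.01 and 14.05 in wt-/mt+, 14.13, 14.04 and 13.88 in wt+/mt-, and 14.01, 13.95 and 14.04 in wt-/mt-. Cox6b2, its testis form, read 5.09, 5.16 and 5.12 in wt+/mt+, 5.30, 5.21 and 5.03 in wt-/mt+, 5.16, 5.35 and 5.42 in wt+/mt-, and 5.17, 5.63 and 5.72 in wt-/mt-, below the array median on every array.

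Cox7a2, the widespread form of subunit 7a, read 14.22, 14.30 and 14.36 in wt+/mt+, 14.27, 14.36 and 14.29 in wt-/mt+, 14.24, 14.17 and 14.27 in wt+/mt-, and 14.34, 14.29 and 14.33 in wt-/mt-. The muscle form Cox7a1 read 11.22, 11.62 and 11.79 in wt+/mt+, 11.31, 11.91 and 11.30 in wt-/mt+, 11.72, 11.63 and 11.74 in wt+/mt-, and 11.39, 11.98 and 11.20 in wt-/mt-, and its genotypes overlapped. Muscle markers were higher without the T24P allele, as given above, and their part in the muscle isoforms Cox6a2, Cox7a1 and Cox8b was not tested. Cox7b2, a testis form of subunit 7b, read 4.11, 4.41 and 4.09 in wt+/mt+, 4.44, 4.23 and 4.40 in wt-/mt+, 4.21, 4.15 and 4.12 in wt+/mt-, and 4.37, 4.07 and 4.39 in wt-/mt-, also below every array median. Cox8a, the common form of subunit 8, read 12.69, 12.88 and 12.94 in wt+/mt+, 12.81, 12.88 and 12.82 in wt-/mt+, 12.66, 12.91 and 13.04 in wt+/mt-, and 12.91, 12.96 and 13.20 in wt-/mt-.

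Of the other forms of subunit 8, Cox8b, a muscle form, read 6.30, 6.77 and 6.66 in wt+/mt+, 6.70, 6.60 and 6.50 in wt-/mt+, 6.65, 6.56 and 6.78 in wt+/mt-, and 6.74, 6.69 and 6.79 in wt-/mt-. Cox8c, a testis form, read 7.95, 8.23 and 8.32 in wt+/mt+, 8.16, 8.21 and 8.35 in wt-/mt+, 8.43, 8.42 and 8.23 in wt+/mt-, and 8.38, 8.25 and 8.41 in wt-/mt-. The difference after loss of both alleles was 0.18 (95% interval -0.09 to 0.45) for Cox8a, 0.16 (95% interval -0.11 to 0.44) for Cox8b and 0.18 (95% interval -0.08 to 0.44) for Cox8c. A dim probe set can reflect background hybridization, so these levels do not show that Cox8b and Cox8c are made.

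In complex III 2 small subunits changed in opposite directions in all 3 comparisons. Uqcr11 is a small subunit of the dimer, read at 12.41, 12.26 and 12.33 in wt+/mt+, 12.25, 12.41 and 12.36 in wt-/mt+, 11.97, 12.21 and 12.34 in wt+/mt-, and 12.77, 12.88 and 12.76 in wt-/mt-. The 3 wt-/mt- arrays lay close together and above the other 9. It rose by 0.48 (SE 0.11, adjusted p = 0.0123) after loss of both alleles, by 0.63 (SE 0.11, adjusted p = 0.00465) against wt+/mt- and by 0.47 (SE 0.11, adjusted p = 0.0135) against wt-/mt+. Uqcrh, the hinge protein that helps cytochrome c dock, read 14.26, 14.35 and 14.33 in wt+/mt+, 14.18, 14.35 and 14.17 in wt-/mt+, 14.05, 14.20 and 14.16 in wt+/mt-, and 13.87, 13.89 and 13.60 in wt-/mt-. Its wt-/mt- arrays were below all others. It changed by -0.52 (SE 0.10, adjusted p = 0.00677), -0.35 (SE 0.10, adjusted p = 0.0478) and -0.45 (SE 0.10, adjusted p = 0.0137) in the same order, and its second probe set gave -0.42, -0.33 and -0.41. The call against wt+/mt- held in 3 of 20 alternative settings (highest adjusted p 0.377), while the fall after loss of both alleles held in all 20.

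The remaining 6 members of complex III, the core proteins Uqcrc1 and Uqcrc2, the Rieske iron-sulfur protein Uqcrfs1 and the small subunits Uqcr10, Uqcrb and Uqcrq, were not called. Uqcrc1 differed by 0.30 (95% interval 0.04 to 0.55) and Uqcrc2 by -0.20 (95% interval -0.43 to 0.02) after loss of both alleles. Other settings called some of the 6 members after loss of both alleles, always as higher. They were Uqcrb at 0.33 (adjusted p = 0.0342) and Uqcrq at 0.36 (adjusted p = 0.013) with the mean of all probe sets. Without replicate 1 of wt-/mt- they were Uqcr10 at 0.45 (adjusted p = 0.0369) and Uqcrc1 at 0.39 (adjusted p = 0.0297). Some settings also called Uqcrb and Uqcr10 higher against wt+/mt-, and Uqcr10 and Uqcrc1 higher against wt-/mt+. The median over the 8 members was 0.20 after loss of both alleles, 0.23 against wt+/mt- and 0.16 against wt-/mt+. The promoters of the called pair are shown because both carry the ETS motif, in capitals. It lies 66 bases before the start of Uqcr11 and 10 bases before that of Uqcrh, where it reads on the other strand.
Uqcr11 promoter, chr10:80406772-80407071, minus strand: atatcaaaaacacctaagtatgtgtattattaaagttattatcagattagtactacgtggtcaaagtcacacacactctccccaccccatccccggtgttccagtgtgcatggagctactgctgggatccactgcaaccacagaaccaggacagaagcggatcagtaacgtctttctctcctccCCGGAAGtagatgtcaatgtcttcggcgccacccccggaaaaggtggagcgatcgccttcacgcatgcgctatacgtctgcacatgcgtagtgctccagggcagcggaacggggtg
Uqcrh promoter, chr4:116075021-116075320, minus strand: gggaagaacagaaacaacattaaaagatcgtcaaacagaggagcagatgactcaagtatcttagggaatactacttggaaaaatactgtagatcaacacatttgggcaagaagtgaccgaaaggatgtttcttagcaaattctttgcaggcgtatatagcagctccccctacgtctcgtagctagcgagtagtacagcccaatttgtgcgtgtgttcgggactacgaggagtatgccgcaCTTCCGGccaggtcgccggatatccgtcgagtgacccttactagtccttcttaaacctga

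Of the 17 kept members of complex V, 1 rose after loss of both alleles, where 12.2% of all genes rose, 4 rose against wt+/mt- (6.35% of all genes) and 2 against wt-/mt+ (9.75% of all genes), and 0 fell. Under other settings some passed as lower after loss of both alleles: Atp5c1 at -0.42 (adjusted p = 0.0271) with the mean of all probe sets, Atp5e at -0.37 (adjusted p = 0.0456) without replicate 1 and Atp5j2 at -0.31 (adjusted p = 0.0306) without replicate 3 of wt-/mt-. With the mean of all probe sets Atp5c1 was also lower against wt+/mt-, at -0.45 (adjusted p = 0.0281). Others passed as higher after loss of both alleles. They were Atp5b at 0.37 (adjusted p = 0.0389) with quantile normalization, Atp5a1 at 0.33 (adjusted p = 0.0399) with each chromosome centred, and Atp5o at 0.45 (adjusted p = 0.0405) without replicate 1 of wt-/mt-. Atp5j passed at 0.48 (adjusted p = 0.0373) with quantile normalization, and without replicate 3 of wt+/mt- or replicate 1 or 2 of wt-/mt-.

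Atp5g1 is 1 of 3 genes (Atp5g1, Atp5g2 and Atp5g3) that encode the same mature subunit c, the ring that turns in the membrane. Its level was 12.25, 12.14 and 12.23 in wt+/mt+, 12.06, 12.06 and 12.08 in wt-/mt+, 11.71, 12.02 and 12.11 in wt+/mt-, and 12.39, 12.64 and 12.80 in wt-/mt-. Every wt-/mt- array lay above every other array. It rose by 0.41 (SE 0.13, adjusted p = 0.0438) after loss of both alleles, by 0.66 (SE 0.13, adjusted p = 0.00813) against wt+/mt- and by 0.54 (SE 0.13, adjusted p = 0.014) against wt-/mt+. The first of these calls held in 7 of 20 alternative settings and was 0.26 (adjusted p = 0.169) after centring each chromosome.

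The sister gene Atp5g3 rose by 0.29 (SE 0.09, adjusted p = 0.0486) against wt+/mt-, a call that held in 5 of 20 settings. Its differences in the other 2 comparisons were 0.22 (SE 0.09, adjusted p = 0.0839) after loss of both alleles and 0.26 (SE 0.09, adjusted p = 0.0534) against wt-/mt+. Atp5g2 was not called, with -0.10 (95% interval -0.40 to 0.20) after loss of both alleles. The promoter of Atp5g1 is shown with its E-box, a site type for MYC and related factors, in capitals 44 bases before the start.
Atp5g1 promoter, chr11:96075582-96075881, minus strand: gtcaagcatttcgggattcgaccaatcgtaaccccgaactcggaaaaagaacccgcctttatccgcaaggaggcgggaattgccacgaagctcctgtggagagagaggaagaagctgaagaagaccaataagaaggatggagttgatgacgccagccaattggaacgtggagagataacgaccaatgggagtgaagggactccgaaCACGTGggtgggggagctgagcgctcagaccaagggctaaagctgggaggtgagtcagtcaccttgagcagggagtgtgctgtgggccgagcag

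Of the stalk subunits of complex V, Atp5o and Atp5j rose against wt+/mt-. Atp5o, the OSCP subunit at the top of the peripheral stalk, read 12.93, 12.92 and 13.00 in wt+/mt+, 12.85, 13.11 and 13.00 in wt-/mt+, 12.46, 12.73 and 12.87 in wt+/mt-, and 13.04, 13.24 and 13.56 in wt-/mt-. Atp5j, coupling factor 6 of the same stalk, read 13.34, 13.23 and 13.31 in wt+/mt+, 13.25, 13.28 and 13.23 in wt-/mt+, 13.00, 13.15 and 13.46 in wt+/mt-, and 13.55, 13.55 and 14.01 in wt-/mt-. For both, wt-/mt- was above wt+/mt- on every array, and replicate 3 of wt-/mt- was the highest of the 12 arrays. Atp5o rose by 0.60 (SE 0.15, adjusted p = 0.022) against wt+/mt-, with 0.45 at its other probe set. After loss of both alleles Atp5o was not called, at 0.33 and, at the other probe set, 0.04. Atp5j rose by 0.50 (SE 0.14, adjusted p = 0.0422) against wt+/mt- and by 0.45 (SE 0.14, adjusted p = 0.0489) against wt-/mt+. These calls held in 6 and 8 of 20 settings, and without replicate 3 of wt-/mt- the second was 0.30 (adjusted p = 0.108). The other stalk subunits were not called against wt+/mt-: Atp5h differed by 0.02 and Atp5pb by -0.01 in the peripheral stalk, and Atp5c1 by -0.10, Atp5d by -0.20 and Atp5e by -0.16 in the central one. The catalytic subunit Atp5b, with 0.31 (95% interval 0.05 to 0.57), and its partner Atp5a1, with 0.23 (95% interval 0.01 to 0.45), were not called after loss of both alleles. Both did pass as higher there under some other settings, as given above.

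Complex I had 41 kept members and the smallest median, 0.00 after loss of both alleles. None of the 6 core members (Ndufs1, Ndufs3, Ndufs7, Ndufs8, Ndufv1 and Ndufv2), which carry the flavin and iron-sulfur centres or line the path of electrons, was called in the 3 comparisons (limma), and 0 had an unadjusted p under 0.05. Their changes after loss of both alleles ran from -0.11 to 0.11. Without replicate 3 of wt-/mt-, Ndufs8 passed as lower, at -0.30 (adjusted p = 0.033) after loss of both alleles and -0.36 (adjusted p = 0.0156) against wt-/mt+. Of the 27 kept accessory members, 2 fell and 0 rose after loss of both alleles, where 9.94% of all genes fell and 12.2% rose. Against wt+/mt-, 4 rose and 0 fell (6.35% and 8.22% of all genes). Against wt-/mt+, 1 rose and 3 fell (9.75% and 11.1% of all genes).

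The highest of these was Ndufa9, a subunit where the peripheral arm meets the membrane arm. Its level was 12.13, 12.19 and 12.30 in wt+/mt+, 12.08, 11.92 and 12.08 in wt-/mt+, 11.73, 11.79 and 11.90 in wt+/mt-, and 12.10, 12.96 and 12.68 in wt-/mt-. Replicates 2 and 3 of wt-/mt- were above all other arrays, and replicate 1 lay between the ranges of wt-/mt+ and wt+/mt+. Ndufa9 rose by 0.77 (SE 0.18, adjusted p = 0.0171) against wt+/mt- and by 0.55 (SE 0.18, adjusted p = 0.0481) against wt-/mt+, and after loss of both alleles it was 0.37 (SE 0.18, adjusted p = 0.148). The call against wt-/mt+ held in 5 of 20 settings. Without replicate 1 of wt-/mt-, Ndufa9 also passed after loss of both alleles, at 0.61 (adjusted p = 0.00429). Its promoter held the YY1 motif, in capitals 29 bases after the start.
Ndufa9 promoter, chr6:126849095-126849394, minus strand: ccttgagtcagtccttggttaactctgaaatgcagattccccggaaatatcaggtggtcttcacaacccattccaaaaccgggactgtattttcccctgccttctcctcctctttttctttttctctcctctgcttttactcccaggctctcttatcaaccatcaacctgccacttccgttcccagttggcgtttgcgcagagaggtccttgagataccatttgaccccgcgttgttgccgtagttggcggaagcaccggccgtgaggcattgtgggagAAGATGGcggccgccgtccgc

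Ndufa5, of the peripheral arm, read 11.69, 11.45 and 11.34 in wt+/mt+, 11.52, 11.56 and 11.48 in wt-/mt+, 11.26, 11.09 and 11.15 in wt+/mt-, and 11.42, 11.94 and 12.24 in wt-/mt-. Ndufb2, of the membrane arm, read 11.80, 11.86 and 11.95 in wt+/mt+, 11.84, 12.02 and 11.80 in wt-/mt+, 11.32, 11.53 and 11.79 in wt+/mt-, and 11.90, 12.13 and 12.16 in wt-/mt-. Each wt-/mt- array was above each wt+/mt- array for both genes. Ndufa5 rose by 0.70 (SE 0.18, adjusted p = 0.0244) and Ndufb2 by 0.51 (SE 0.13, adjusted p = 0.0249) against wt+/mt-, with 0.74 and 0.61 at their next brightest probe sets. Neither call held without replicate 1 or without replicate 2 of wt+/mt-. Ndufb6, also of the membrane arm, rose by 0.28 (SE 0.09, adjusted p = 0.0482), a call that held in 5 of 20 settings. After loss of both alleles Ndufa5 was not called, at 0.37. It passed there at 0.51 (adjusted p = 0.0351) with the mean of all probe sets and at 0.60 (adjusted p = 0.00799) without replicate 1 of wt-/mt-. In the latter fit Ndufb10 passed as lower, at -0.47 (adjusted p = 0.0295).

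The membrane arm subunits Ndufb11, Ndufc1 and Ndufb3 fell in at least 1 comparison, while Ndufb9 (0.28), Ndufb8 (0.17) and Ndufb7 (0.07) were not called after loss of both alleles. Ndufb9 did pass there at 0.29 (adjusted p = 0.0423) with quantile normalization and at 0.32 (adjusted p = 0.0402) without replicate 1 of wt-/mt-. Ndufb11 read 13.87, 13.90 and 13.81 in wt+/mt+, 13.86, 13.97 and 13.89 in wt-/mt+, 13.84, 13.78 and 13.62 in wt+/mt-, and 13.56, 13.43 and 13.64 in wt-/mt-. Ndufc1 read 13.38, 13.37 and 13.25 in wt+/mt+, 13.35, 13.41 and 13.30 in wt-/mt+, 13.16, 13.10 and 13.08 in wt+/mt-, and 13.06, 13.13 and 13.01 in wt-/mt-. The wt-/mt- arrays were below those of wt+/mt+ and wt-/mt+ for both and overlapped with wt+/mt-. Ndufb11 fell by 0.32 (SE 0.10, adjusted p = 0.0374) after loss of both alleles and by 0.36 (SE 0.10, adjusted p = 0.0231) against wt-/mt+, and Ndufc1 changed by -0.27 (SE 0.08, adjusted p = 0.0451) and -0.28 (SE 0.08, adjusted p = 0.0374). Their other probe sets differed: the third of Ndufb11 gave -0.08 and the second of Ndufc1 -0.01 after loss of both alleles. The first of these calls held in 5 of 20 settings for Ndufb11 and in 2 for Ndufc1. Ndufb3 read 12.50, 12.53 and 12.30 in wt+/mt+, 12.53, 12.64 and 12.65 in wt-/mt+, 12.54, 12.56 and 12.44 in wt+/mt-, and 12.00, 12.38 and 12.29 in wt-/mt-. It fell by 0.38 (SE 0.11, adjusted p = 0.0363) against wt-/mt+, and the difference was -0.08 (adjusted p = 0.617) after centring each chromosome.

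Of the 8 assembly factors of complex I, which help build the enzyme and leave it, 2 fell in 1 comparison each. Over all genes, 9.94% fell after loss of both alleles and 11.1% against wt-/mt+. Ndufaf3 read 10.53, 10.78 and 10.79 in wt+/mt+, 10.73, 11.14 and 10.73 in wt-/mt+, 10.44, 10.61 and 10.65 in wt+/mt-, and 10.47, 10.28 and 9.71 in wt-/mt-. It fell by 0.72 (SE 0.19, adjusted p = 0.0224) against wt-/mt+, and replicate 3 of wt-/mt- was the lowest of the 12 arrays. After loss of both alleles Ndufaf3 passed under some other settings, such as equal array medians, at -0.55 (adjusted p = 0.0462). Ndufaf8, a partner of the hydroxylase Ndufaf5, read 11.85, 11.91 and 11.80 in wt+/mt+, 11.71, 11.86 and 11.71 in wt-/mt+, 11.59, 11.69 and 11.49 in wt+/mt-, and 11.43, 11.62 and 11.49 in wt-/mt-. It fell by 0.34 (SE 0.10, adjusted p = 0.0287) after loss of both alleles, and its second, dimmer probe set gave 0.04. The wt+/mt- arrays also lay below those of wt+/mt+, a difference of -0.26 (SE 0.10, adjusted p = 0.22) that was not called.

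All 4 members of complex II, succinate dehydrogenase, passed the filter and 0 were called by limma, with 1 at an unadjusted p under 0.05 in each of the 3 comparisons. Sdhd, an anchor in the membrane, read 11.48, 11.51 and 11.50 in wt+/mt+, 11.41, 11.51 and 11.32 in wt-/mt+, 11.01, 11.28 and 11.39 in wt+/mt-, and 11.32, 11.94 and 12.09 in wt-/mt-, and Sdhc, the other anchor, read 10.50, 10.72 and 10.87 in wt+/mt+, 10.83, 10.78 and 10.62 in wt-/mt+, 10.75, 10.83 and 10.91 in wt+/mt-, and 10.60, 11.39 and 11.12 in wt-/mt-. For both, replicates 2 and 3 of wt-/mt- were above all other arrays and replicate 1 was within the range of the others. After loss of both alleles Sdhd differed by 0.29 (95% interval -0.10 to 0.68) and Sdhc by 0.34 (95% interval -0.05 to 0.73). The flavoprotein Sdha differed by 0.25 (95% interval -0.18 to 0.68) and the iron-sulfur subunit Sdhb by -0.21 (95% interval -0.42 to -0.00). Other settings called some of them higher. With each chromosome centred, Sdhc passed at 0.55 (adjusted p = 0.0105) after loss of both alleles, 0.47 (adjusted p = 0.0304) against wt+/mt- and 0.60 (adjusted p = 0.0071) against wt-/mt+. Without replicate 1 of wt-/mt-, Sdhc and Sdhd passed in all 3 comparisons, at 0.56 and 0.52 after loss of both alleles. Against wt+/mt-, where it differed by 0.56 (SE 0.18, adjusted p = 0.0568), Sdhd also passed with quantile normalization, equal array medians, the mean of all probe sets and centred chromosomes, at 0.49 to 0.60 (highest adjusted p 0.0443). Sdha passed against wt-/mt+ with equal array medians, at 0.55 (adjusted p = 0.049).

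**Figure D3:**
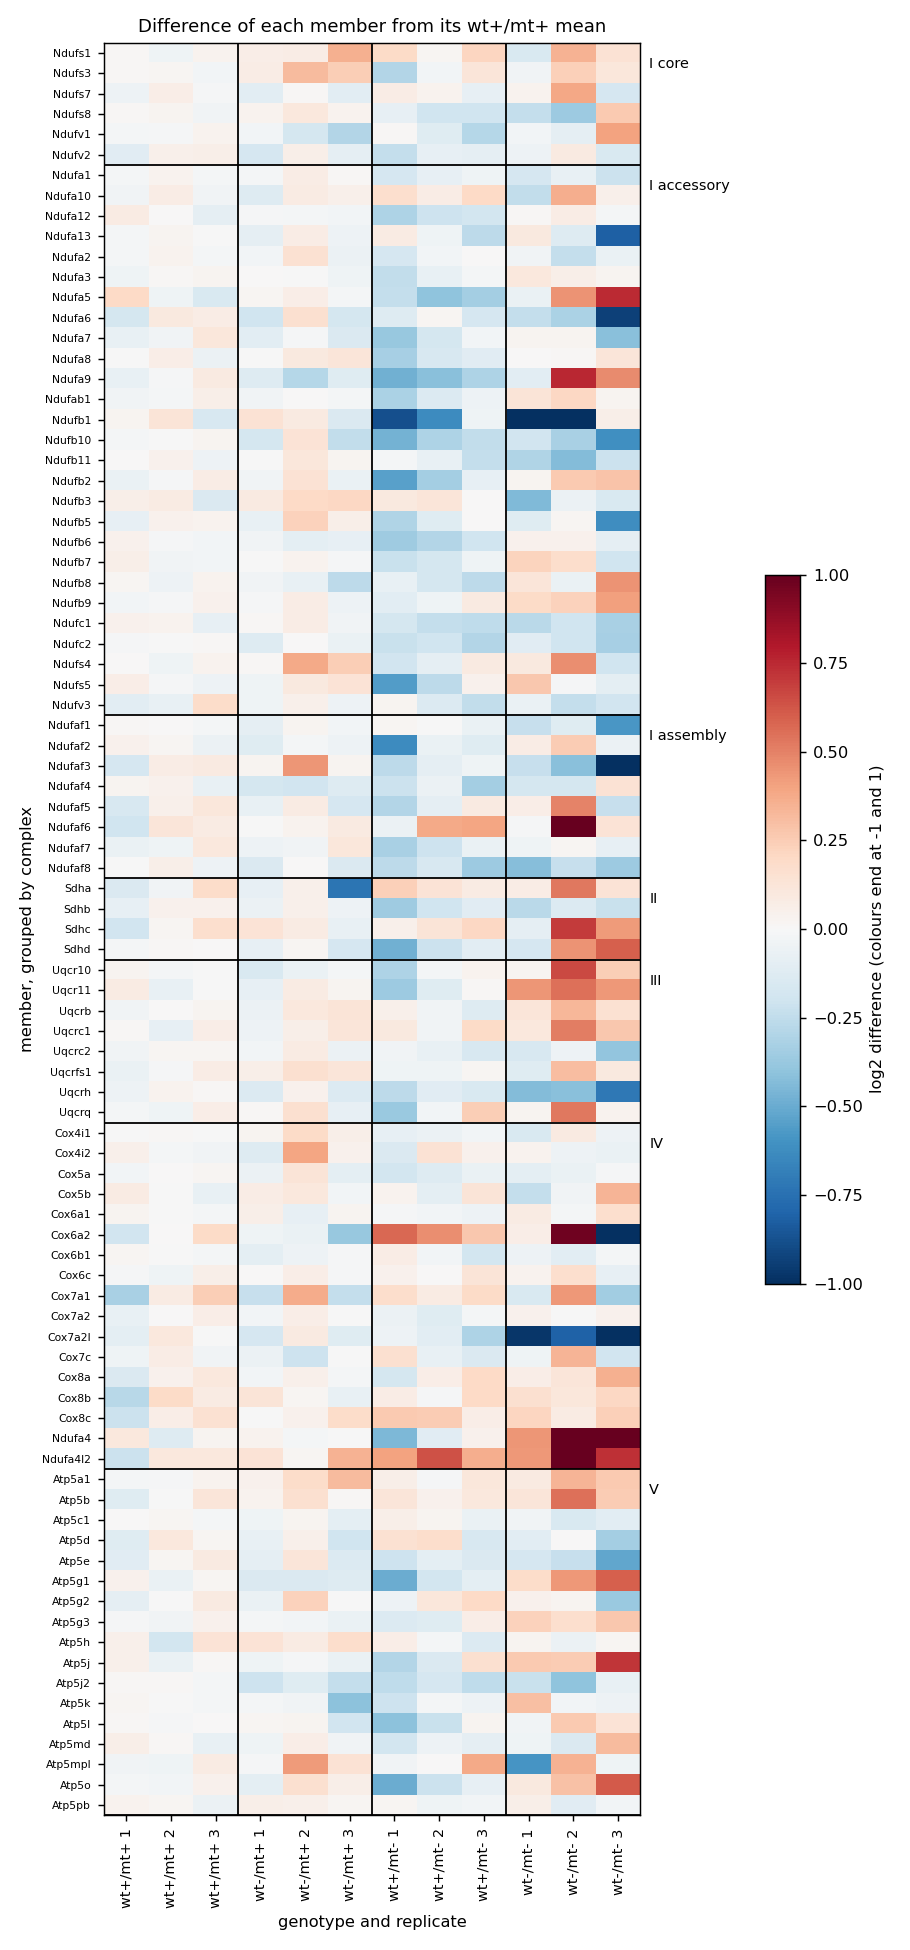
Log2 difference of each of the 87 kept members (rows, grouped by complex) from its own wt+/mt+ mean on each of the 12 arrays (columns, by genotype and replicate). The colours are strongest in wt-/mt-, where the 3 replicates often differ in direction (Cox6a2, Ndufb1), while Ndufa4 is higher and Cox7a2l lower on all 3.

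Several members were far from wt+/mt+ on 1 or 2 of the wt-/mt- arrays and were not called with all arrays in the fit. Ndufb1, a membrane arm subunit, read 10.24, 10.34 and 10.04 in wt+/mt+, 10.35, 10.30 and 10.06 in wt-/mt+, 9.33, 9.57 and 10.16 in wt+/mt-, and 8.73, 9.13 and 10.26 in wt-/mt-. It was low on replicates 1 and 2 of both wt+/mt- and wt-/mt- and near wt+/mt+ on the remaining replicate of each, and differed by -0.83 (SE 0.33, adjusted p = 0.0915) after loss of both alleles. Without replicate 3 of wt-/mt- it passed as lower in all 3 comparisons. The changes were then -1.27 (adjusted p = 0.00328) after loss of both alleles, -0.76 (adjusted p = 0.0435) against wt+/mt- and -1.31 (adjusted p = 0.00248) against wt-/mt+. Ndufa13, also known as GRIM-19, read 14.03, 13.80 and 13.11 in wt-/mt- against 13.91 to 13.95 in wt+/mt+. It lies on chromosome 8, whose median on replicate 3 of wt-/mt- was -0.27 relative to wt+/mt+. Ndufa6, of the peripheral arm, read 12.76, 12.68 and 12.07 against 12.82 to 13.10, a difference of -0.50 (SE 0.18, adjusted p = 0.0685). It passed at -0.62 (adjusted p = 0.0311) without replicate 1 and at -0.59 (adjusted p = 0.049) without replicate 2 of wt-/mt-.

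Loss of 1 allele with the other in place gave no called member. Removing the T24P allele while the wild-type allele remained (wt+/mt- minus wt+/mt+) gave 0 calls by limma against 0.183% of all genes (0.113% higher and 0.0698% lower). An unadjusted p under 0.05 was reached by 10 members, all lower, with no share of all genes at that threshold at hand. The median was -0.09 over the members and 0.04 over all genes, and complex I stood at -0.14, with 5 of its 41 members above 0. The lowest adjusted p was that of Ndufb6, with -0.28 (SE 0.09, adjusted p = 0.154). Complex I was lowest on the arrays of high actin ratio: its median difference from wt+/mt+ was -0.22 and -0.12 on replicates 1 and 2 of wt+/mt- and -0.08 on replicate 3. The part of RNA quality in that shift was not tested beyond these values. With 1 weight per genotype, which gives noisy genotypes less influence, Ndufa9 (-0.40, adjusted p = 0.0368) and Ndufb6 (-0.28, adjusted p = 0.0349) passed.

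Removing the wild-type allele while the T24P allele remained (wt-/mt+ minus wt+/mt+) gave 0 calls among members and 0% of all genes, and 0 members had an unadjusted p under 0.05. The median was 0.00, the changes ran from -0.26 to 0.21, and the 95% interval lay within -0.5 and 0.5 for 77 of 87 members, against 59.8% of all genes. Between the genotypes that keep 1 allele each (wt-/mt+ minus wt+/mt-) limma gave 0 member calls, against 0.0873% of all genes (0.0349% higher and 0.0524% lower). In that comparison 6 members had an unadjusted p under 0.05, all higher and all of complex I, again without such a share of all genes. They were Ndufb2 (0.34), Ndufs3 (0.28), Ndufa8 (0.27), Ndufc1 (0.24), Ndufb6 (0.21) and Ndufa12 (0.21), with adjusted p from 0.185 to 0.288. All 3 single-allele comparisons gave 0 member calls under each alternative setting, except for the 2 calls with weights given above.

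Fewer genes passed against wt+/mt-, members and others, in fits that took in the actin ratio or left out its replicate 1, replicate 2 or both. With the ratio as a covariate 1 member was called, Cox7a2l, against 2.5% of all genes. Without replicates 1 and 2 of wt+/mt- 0 members were called by limma, with 8 at an unadjusted p under 0.05, against 1.03% of all genes. The changes themselves were often nearly as large: under these 2 settings Ndufa4 was 0.87 and 0.91, Cox7a2l -0.66 and -0.62, Ndufa9 0.68 and 0.68 and Ndufa5 0.73 and 0.72. Those of Ndufb2, at 0.27 and 0.27, and Atp5j, at 0.27 and 0.25, were smaller than the 0.51 and 0.50 over all arrays. The part of RNA quality in these differences was not tested. Without replicate 1 alone, or replicate 2 alone, 4 members were called: Atp5g1, Cox7a2l, Ndufa4 and Uqcr11. Where both arrays are left out, the remaining wt+/mt- array is assumed to vary like the other genotypes.

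The interaction asked whether losing the T24P allele had another effect without the wild-type allele than with it. It called 2 of 87 members, 1 in each direction, or 2.3% against 3.14% of all genes (0.838% higher and 2.30% lower). An unadjusted p under 0.05 was reached by 17, with no share of all genes at that threshold at hand. The interaction of Atp5g1 was 0.80 (SE 0.18, adjusted p = 0.0398): the loss of T24P gave 0.54 without and -0.26 with the wild-type allele. For Cox7a2l it was -0.71 (SE 0.16, adjusted p = 0.0388), from -0.87 without and -0.15 with it. Ndufa4, at 1.12 (SE 0.28, adjusted p = 0.0571), Uqcr11, at 0.62 (SE 0.15, adjusted p = 0.0554), and Ndufa9, at 0.95 (SE 0.25, adjusted p = 0.0694), did not pass. Each did pass with equal array medians, with centred chromosomes and without replicate 1 of wt-/mt-. In the last of these fits they were 1.38 (adjusted p = 0.00288), 0.64 (adjusted p = 0.0406) and 1.19 (adjusted p = 0.00225). The F test over the 4 genotypes called 6 members, or 6.9% against 19.2% of all genes: Cox7a2l, Ndufa4, Uqcr11, Atp5g1, Uqcrh and Ndufa9.

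Medians of whole chromosomes differed between the wt-/mt- arrays, and several called members sat on them. Relative to wt+/mt+, the median of the 565 tested genes of chromosome 6 was 0.06, 0.33 and 0.22 on the 3 wt-/mt- arrays, and that of 362 genes of chromosome 16 was 0.04, 0.09 and 0.34. In the other genotypes the chromosome 6 median lay between -0.05 and 0.07 and that of chromosome 16 between -0.04 and 0.05. Other chromosomes, not shown in full, were shifted on single wt-/mt- arrays too. The median of chromosome 1 was -0.31 on replicate 1, and those of chromosomes 8, 19 and 3 were -0.27, 0.26 and -0.19 on replicate 3. All 4 kept members on chromosome 6 (Ndufa4, Ndufa5, Ndufa9 and Ndufb2) and both on chromosome 16 (Atp5j and Atp5o) were among the 12 called against wt+/mt-. Ndufa9 was -0.11, 0.75 and 0.47 from its wt+/mt+ mean on the 3 arrays and Ndufa5 -0.07, 0.45 and 0.74, in both cases lowest where the chromosome was lowest.

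With each chromosome centred on each array, Ndufa4 remained called against wt+/mt- at 0.94 (adjusted p = 0.00348) and Ndufa9 at 0.59 (adjusted p = 0.00694). The differences of Ndufa5, at 0.52 (adjusted p = 0.0547), Ndufb2, at 0.33 (adjusted p = 0.0946), Atp5o, at 0.39 (adjusted p = 0.0656), and Atp5j, at 0.29 (adjusted p = 0.126), no longer passed. Ndufa4 was also called at 0.77 (adjusted p = 0.00635) after loss of both alleles. Chromosome 12 had a median of -0.66, 0.03 and -0.04 on the wt-/mt- arrays, and of its 3 kept members Atp5mpl, a small subunit of complex V, read -0.59, 0.35 and -0.05, Ndufb1 -1.47, -1.08 and 0.06, and Cox8c 0.21, 0.08 and 0.24. Atp5mpl and Ndufb1 were lowest where the chromosome was lowest, and Ndufb1 was also low on replicate 2, where the chromosome was not. Whether gene dosage differs between these cells was not tested.

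**Figure D4:**
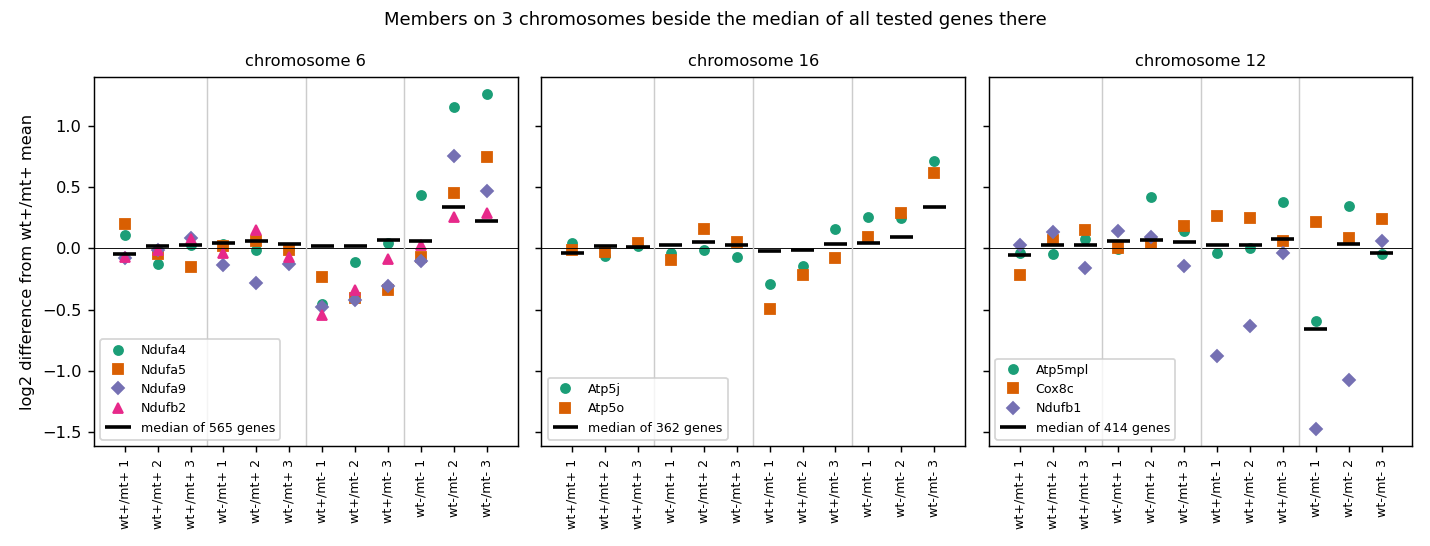
Log2 difference from the wt+/mt+ mean (vertical axis) on each of the 12 arrays (horizontal axis) for the kept members on chromosomes 6, 16 and 12, as coloured markers, beside the median of all tested genes of the chromosome, as black bars. In wt-/mt- the chromosome 6 median is 0.06, 0.33 and 0.22, and Ndufa4 exceeds it on each array at 0.44, 1.15 and 1.26.

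Promoter sequence was compared for the 74 members with an entry in the RefSeq table, against 27025 genes. The ETS motif CCGGAAG occurred in 25.7% of the members' windows and 9.93% of all, the NRF1 motif in 23.0% and 5.19%, and the YY1 motif AAGATGG in 14.9% and 7.28%. NRF1 and GABP are textbook regulators of nuclear genes for respiration. The E-box occurred in 8.11% and 8.09%, and the forkhead core GTAAACA in 2.70% and 4.05%, in the members Cox7a2 and Ndufaf1. Of these 2, Cox7a2 was not called, with 0.03 (95% interval -0.16 to 0.21) after loss of both alleles, nor was Ndufaf1, with -0.31 (SE 0.11, adjusted p = 0.0716). Without replicate 2 of wt-/mt-, Ndufaf1 passed at -0.40 (adjusted p = 0.0239). A match is a string of letters in this window and no evidence that a factor binds there.

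Genes that build the complexes but lie outside the symbol rule were mixed too. Of 38 tested assembly factors, 3 rose and 3 fell after loss of both alleles, 6 rose and 1 fell against wt+/mt-, and 2 rose and 4 fell against wt-/mt+. These calls were 15.8%, 18.4% and 15.8% of the list, against 22.1%, 14.6% and 20.8% of all genes in that order. Atpaf1, a chaperone for complex V, rose by 0.59 (SE 0.10, adjusted p = 0.00363) after loss of both alleles, and Fmc1, another complex V factor, by 0.57. Sco1, which delivers copper to complex IV, rose by 0.42, while Surf1, needed for complex IV assembly, fell by 0.75. Sdhaf4, a complex II factor, fell by 0.49 and Tmem126b, a complex I factor, by 0.48. Against wt+/mt-, Fmc1 rose by 0.95, Sco1 by 0.65 and Ttc19, a complex III factor, by 0.55, and Sdhaf4 fell by 0.61. Against wt-/mt+, Atpaf1 rose by 0.53 and Sco1 by 0.42, while Surf1 fell by 0.75, Tmem126b by 0.56 and Sdhaf4 by 0.55. Somatic cytochrome c, Cycs, rose by 0.47 (adjusted p = 0.0353) against wt+/mt-.

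Of 76 mitochondrial ribosomal proteins, 5 rose and 2 fell after loss of both alleles, 14 rose and 1 fell against wt+/mt-, and 6 rose and 5 fell against wt-/mt+. The list's shares called were 9.21%, 19.7% and 14.5%, against 22.1%, 14.6% and 20.8% of all genes. Against wt+/mt-, 6.35% of all genes rose and 8.22% fell. Mrpl1 changed by -0.95, -0.58 and -1.02 in that order (highest adjusted p 0.00869). After loss of both alleles Mrps6 rose by 0.89, Mrps22 by 0.73 and Mrpl38 by 0.64, and Mrps9 fell by 0.40. The median of this list was -0.32 on replicate 1 of wt+/mt-, -0.08 on replicate 2 and -0.0044 on replicate 3, relative to wt+/mt+, and it too was lowest where the actin ratio was highest. The part of RNA quality in these calls was not tested.

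Among 18 genes of import and mitochondrial shape, 5 rose and 0 fell after loss of both alleles, or 27.8% against 22.1% of all genes. Against wt+/mt- 4 rose, or 22.2% against 14.6%, and against wt-/mt+ 4 rose, or 22.2% against 20.8%. Immt, the core of the cristae junction complex, rose by 0.65, 0.81 and 0.54 in that order, and the matrix chaperone Hspa9 by 0.58 after loss of both alleles. The other called examples were Hspd1, a chaperonin, at 0.56 after loss of both alleles, the import channel Timm23 at 0.53 and its partner Timm50 at 0.52 against wt+/mt-, and prohibitin Phb2 at 0.61 against wt-/mt+. Of 15 genes of the tricarboxylic acid cycle, 2 rose and 0 fell after loss of both alleles: the succinyl-CoA ligase subunits Suclg2, by 0.67, and Suclg1, by 0.51. Suclg1 was the single call of this list against wt+/mt- (0.65) and against wt-/mt+ (0.48). The shares called were thus 13.3%, 6.67% and 6.67%, against 22.1%, 14.6% and 20.8% of all genes.

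Of 19 regulators of mitochondrial gene expression, 1 was called after loss of both alleles, Mterf4, which fell by 0.46. Tfam, which packages mitochondrial DNA, rose by 0.51 against wt+/mt-. Against wt-/mt+ the helicase Twnk rose by 0.57 and the coactivator Pprc1 by 0.54, and Mterf4 fell by 0.48. The shares of this list called were 5.26%, 5.26% and 15.8%, below the 22.1%, 14.6% and 20.8% of all genes. Of 8 genes that handle reactive oxygen in mitochondria, the peroxiredoxin Prdx3 rose by 0.46 and the glutaredoxin Glrx2 fell by 0.65 after loss of both alleles. Glrx2 also fell against wt+/mt- (-0.61) and wt-/mt+ (-0.65), while Gpx1 rose by 0.97 against wt+/mt-, and Prdx3 by 0.50 and Txn2 by 0.45 against wt-/mt+. For these 8 genes the shares called were 25%, 25% and 37.5%, against 22.1%, 14.6% and 20.8% of all genes. Of 7 uncoupling and nucleotide carriers, Ucp3, at a dim level, rose by 0.50 after loss of both alleles and by 0.41 against wt-/mt+. That 1 gene is 14.3% of the list in each, against 22.1% and 20.8% of all genes.

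Of 8 hypoxia-induced genes, read because Ndufa4l2 and Cox4i2 are known to respond to hypoxia, 1 was called, Bnip3, a mitophagy receptor that is also a known FOXO target. It changed by -0.66, -0.58 and -0.84 in the 3 comparisons (highest adjusted p 0.00975). This 1 gene is 12.5% of the list in each, against 22.1%, 14.6% and 20.8% of all genes. The median of this list was -0.33, 0.18 and -1.06 on the 3 wt-/mt- arrays, relative to wt+/mt+. Of 19 G2/M genes, 15 rose and 0 fell after loss of both alleles, 12 rose against wt+/mt- and 1 against wt-/mt+. These were 78.9%, 63.2% and 5.26% of the list, against 22.1%, 14.6% and 20.8% of all genes. Birc5 rose by 1.39, Kif20a by 1.18 and Plk1 by 1.16 after loss of both alleles. The part of cell cycle stage in the members' values was not tested.

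**Figure D5:**
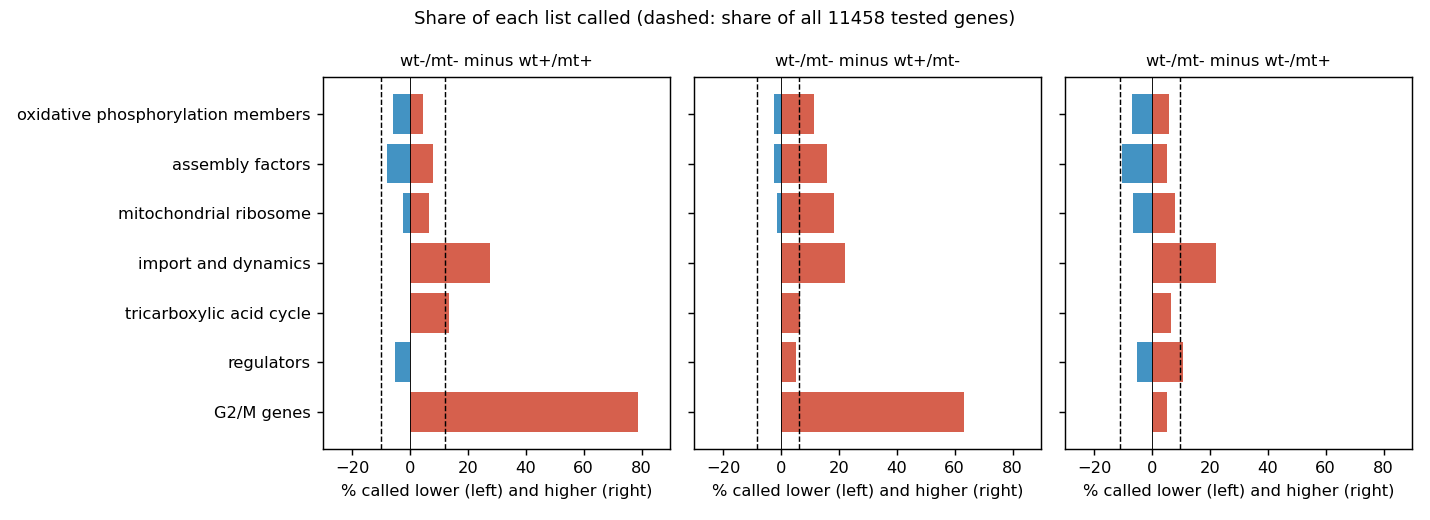
Percentage of tested genes called higher (red, to the right of 0) and lower (blue, to the left) in 7 lists, for the 3 comparisons against wt-/mt-; dashed lines are the shares of all 11458 tested genes. The members and their assembly factors show calls in both directions, and the G2/M bar reaches 78.9% after loss of both alleles.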

How the data were processed

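Expression was read from 12 arrays of 4 genotypes, 3 per genotype, grouped by the genotype in the labels. RNA was extracted on Qiagen columns and labelled for the array with an Affymetrix 3' IVT kit, per the labels' protocols. The authors deposited log2 expression of each probe set, and the submitters' processing notes name RMA as the tool, from which base 2 is taken. RMA normalizes arrays to each other, so a shift shared by most genes is largely removed, and levels of different probe sets cannot be compared. Array depth has no count; the number of arrays limits the precision.

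Of 45101 probe sets, 34958 named 1 gene in GEO's platform annotation, and these covered 18194 genes, each read by its brightest probe set. Genes above the array median in at least 3 arrays were kept, 11458 in all. They were fitted with limma 3.58.1 in R 4.3.3 (1 mean per genotype, eBayes), with Benjamini-Hochberg adjustment over all kept genes and calls at an adjusted p under 0.05. SE is the standard error of a change in that fit, which also gave the 95% intervals. Both assume 1 spread for all genotypes. On simulated arrays with the real spread, 100 genes were changed by 0.5 and 100 by 1 (log2) for the loss of both alleles. Of these, 48% and 85% were recovered, and 63 unchanged genes were called as well. Those 63 are a larger share of the calls than an adjusted p under 0.05 is meant to allow. In the data 22.1% of all genes passed in that comparison, so the simulated shares may not carry over.

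The alternatives were quantile normalization, equal array medians, no filter on dim genes, the mean of all probe sets, 1 weight per genotype, the actin ratio as a covariate, leaving out both wt+/mt- arrays of high ratio, centring per chromosome, and leaving out each array in turn. Values in each array are given for up to 3 called members per complex and direction in each comparison and for tissue-restricted isoforms with their counterparts; from other lists up to 3 called genes per direction are named, by size of change. A further member named for its values (such as Ndufb1, Ndufa13, Ndufa6 and Sdhc) was chosen after they were seen. The members and lists were chosen with earlier results of these data known. Array numbers in the labels run on across genotypes and do not tell if arrays were matched, so none was treated as paired. Scanner files were not used here.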

Additional observations from a re-analysis of the deposited data

Results flagged for a closer look

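For 2 members the effect of losing the T24P allele differed between cells without and with the wild-type allele, by a test of the difference itself (limma's interaction term, over all 12 arrays). Atp5g1 had an interaction of 0.80 (SE 0.18, adjusted p = 0.0398), and its level was higher in all 3 wt-/mt- arrays than in the other 9. Over the 20 alternative settings it ranged from 0.41 to 0.91, with adjusted p from 0.0101 to 0.299, and stayed called in 8. Cox7a2l had an interaction of -0.71 (SE 0.16, adjusted p = 0.0388), and its level was lower in all 3 wt-/mt- arrays than in the other 9. It ranged from -0.79 to -0.56, with adjusted p from 0.0169 to 0.354, and stayed called in 8. Neither call held once the actin ratio entered the fit, without both wt+/mt- arrays of high ratio, without any single array of wt+/mt+ or wt-/mt+, or without replicate 1 or 2 of wt+/mt-. The interactions of Ndufa4, Uqcr11 and Ndufa9 passed under some of the alternative settings, as given above.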

How the results depend on the processing

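The changes and F values of called members (40 results under 20 alternatives, 800 values) did not reverse: 532 stayed called and 268 kept their direction without passing. Of 1460 such values of the other named genes, 1062 stayed called, 398 did not and 0 reversed. The calls of Cox7a2l and Ndufa4 after loss of both alleles and against wt-/mt+ held under all 20 alternatives, as did that of Uqcrh after loss of both alleles.

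Counts of called members moved as follows. With 1 weight per genotype they were 3 after loss of both alleles, 3 against wt+/mt-, 2 against wt-/mt+, 2 for loss of the T24P allele with the wild-type allele present, 3 for the interaction and 3 in the F test. With the actin ratio as a covariate they were 5 after loss of both alleles, 1 against wt+/mt- (287 genes over all) and 0 for the interaction (166 genes over all). Without both wt+/mt- arrays of high ratio they were 0 against wt+/mt-, 7 against wt-/mt+, 0 for the interaction (56 genes over all) and 3 in the F test, with fewer samples in that fit. The interaction called 4 members with equal array medians, all higher, and 4 with centred chromosomes, 3 of them higher. The cause of the other shifts was not tested.

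Leaving out 1 array gave 3 to 21 members after loss of both alleles, 4 to 15 against wt+/mt- (lowest without replicate 1 or 2 of wt+/mt-), 3 to 17 against wt-/mt+, 0 to 7 for the interaction (0 without any single array of wt+/mt+ or wt-/mt+ or replicate 1 or 2 of wt+/mt-, 7 without replicate 1 and 4 without replicate 2 of wt-/mt-), 4 to 14 in the F test (highest without replicate 1 of wt-/mt-) and 0 to 0 in the single-allele comparisons. No paired analysis was possible because the arrays carry no replicate number shared between genotypes. With 3 arrays a genotype, and wt-/mt- the most variable, a change of 0.5 is often missed, and dim probe sets such as that of Ndufa4l2 bound a level poorly.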
